A study of Mus musculus with 12 samples.

Results

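Hmgcs1, Idi1, Fdps, Fdft1, Sqle, Lss, Cyp51 and Nsdhl are 8 genes of cholesterol synthesis, and their mRNA was followed in perigonadal fat of mice labelled as overexpressors or knockouts of the glucose transporter Glut4. They were taken as every probe set whose platform annotation names 1 of these genes and no other, which gave 13 of the 12422 probe sets on the array. Uptake genes are not among the 8 and appear below as neighbours of the pathway. Each of 12 mice, labelled female, 6 months old and fed ad libitum, had its own Affymetrix array, and the values are array intensities on a linear scale. The 3 overexpressors carried a Glut4 transgene driven by the aP2 promoter on the FVB strain and were set against 3 FVB littermates. The 3 knockouts, labelled adipose-Glut4-/-, were set against 3 mice with the aP2-Cre transgene, all 6 on a mix of C57B6, FVB and SV129. The aP2 promoter is the Fabp4 promoter, which is active in fat cells and also in some macrophages, and the labels do not say which exons were deleted.

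Cholesterol is built from acetyl-CoA through mevalonate, isoprenoid units, squalene and a chain of sterols. When sterols in the endoplasmic reticulum run low, the transcription factor SREBP2 is released from the membrane and turns on nearly every enzyme of the route together with the receptor that takes up low-density lipoprotein. Fat cells store much free cholesterol around their lipid droplets but are known to take up a large share of it rather than make it. Hmgcs1 joins acetyl-CoA units at the start of the mevalonate route, Idi1 isomerises isopentenyl diphosphate, and Fdps builds farnesyl diphosphate. Fdft1 couples farnesyl units to squalene, Sqle oxidises squalene, and Lss closes the ring to lanosterol. Cyp51 removes the 14-alpha methyl group of lanosterol, and Nsdhl helps to remove the C-4 methyl groups.

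The promoters of Hmgcs1, Idi1 and Nsdhl are shown for the way these genes varied between mice. Idi1 and Nsdhl varied together in both lines, and Hmgcs1 varied with them in the overexpressor line only. Each window is from RefSeq on GRCm38.p6 and runs from 250 bases before to 50 bases after the annotated start, 5′ to 3′ on the gene's strand. Hmgcs1 lies at chr13:119690101-119690400, Idi1 at chr13:8885356-8885655 and Nsdhl at chrX:72918271-72918570, all on the plus strand. Capitals mark 3 motifs on either strand: a sterol regulatory element core (TCACNCCAC), the NF-Y box (CCAAT) and the Sp1 box (GGGCGG). A match is a run of letters and not a measured binding site.
Hmgcs1: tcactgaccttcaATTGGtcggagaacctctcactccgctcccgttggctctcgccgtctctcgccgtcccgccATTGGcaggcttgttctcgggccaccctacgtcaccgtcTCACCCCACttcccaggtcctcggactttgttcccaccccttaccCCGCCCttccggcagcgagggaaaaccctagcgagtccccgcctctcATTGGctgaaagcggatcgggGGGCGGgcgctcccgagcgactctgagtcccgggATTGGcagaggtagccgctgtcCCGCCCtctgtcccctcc
Idi1: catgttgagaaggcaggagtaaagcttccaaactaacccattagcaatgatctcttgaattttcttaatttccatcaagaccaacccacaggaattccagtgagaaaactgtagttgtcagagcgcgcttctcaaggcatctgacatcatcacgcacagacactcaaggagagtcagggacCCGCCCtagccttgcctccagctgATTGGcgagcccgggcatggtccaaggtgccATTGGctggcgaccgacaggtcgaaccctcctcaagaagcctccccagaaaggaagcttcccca
Nsdhl: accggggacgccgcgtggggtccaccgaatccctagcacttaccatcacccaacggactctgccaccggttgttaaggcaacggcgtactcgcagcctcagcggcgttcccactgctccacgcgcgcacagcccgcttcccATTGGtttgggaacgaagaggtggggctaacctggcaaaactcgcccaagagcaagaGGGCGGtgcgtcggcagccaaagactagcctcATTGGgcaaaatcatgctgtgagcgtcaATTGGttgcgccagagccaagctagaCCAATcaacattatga

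Of the 8 genes, 5 had a window in the RefSeq table, the other 2 being Lss at chr10:76531355-76531654 on the plus strand and Cyp51 at chr5:4104648-4104947 on the minus strand. The Hmgcs1 window was the 1 among these 5 with the sterol regulatory element core, as TCACCCCAC at bases -137 to -129 with the start counted as 0. That core occurred in 1.24% of all 32851 promoter windows. All 5 windows held an NF-Y box, against 37.4% of all windows, and all 5 held an Sp1 box, against 35.7%. Hmgcs1 and Nsdhl had 4 NF-Y boxes each, Idi1 had 2, and Lss and Cyp51 had 1 each. The 3 motifs did not overlap one another in these windows.

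Array medians ran from 185.8 in knockout control 3 and 188.1 in overexpressor 1 to 219.4 in overexpressor control 1. The lowest value in the table was 21.9 in the overexpressor line and 22.27 in the knockout line, so no level is compared between lines. Slc2a4, which encodes Glut4, read 624.6, 1110 and 1042 in overexpressors, against 639.0, 582.7 and 1212 in their controls. In knockouts it read 377.5, 365.4 and 363.4, against 416.1, 513.5 and 614.2 in their controls. The knockout groups did not overlap, but neither difference passed the limma test (adjusted p = 0.930 and 1), and a probe set outside the altered part would check neither label. Fat cell markers were abundant on every array, with Adipoq between 5196 and 6985.

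The first comparison set the mice labelled as knockouts against their controls. In knockout fat 7 of 7 tested genes had a positive log2 fold change, with a median of 0.54 against 0.04 over all 7454 tested probe sets, of which 63.0% had a positive one. None passed limma's Benjamini-Hochberg threshold of 0.05 over all probe sets: 0 of 7 genes and 0 of 10 probe sets were called, against 9 of 7454 probe sets in all (0.121%). At an unadjusted p under 0.05, 4 of the 7 genes were higher (Idi1, Fdps, Lss and Nsdhl), where 3.47% of all tested probe sets were. With single arrays left out, this count ran from 2 (without knockout 2 or without knockout control 3) to 5 (without overexpressor 1). It was also 2 in a fit that left out no dim probe sets. In Idi1, Fdps, Lss and Nsdhl all 3 knockouts lay above all 3 controls, which held for 5.62% of all tested probe sets. Of these 4 genes, Lss was bright enough to test only through the overexpressor line. The genes were picked with an earlier result on this pathway in these arrays known, so their direction is not independent evidence. In bulk tissue, a change in the number of cells of a type and a change in RNA per cell cannot be told apart.

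Nsdhl had the largest log2 change of the 8 genes in the knockout. Its brightest probe set read 439.4, 390.1 and 321.5 in knockouts, against 207.7, 190.6 and 163.0 in controls. Every knockout was well above every control, with means of 384 ± 59.2 and 187 ± 22.6 (SD, n = 3 arrays each). The log2 fold change was 0.90 (SE 0.24, 95% interval 0.37 to 1.43, limma adjusted p = 0.808). Both other Nsdhl probe sets separated the groups in the same direction. They gave 0.92 (183.0, 192.5 and 169.0 in knockouts, against 92.0, 86.1 and 59.1 in controls) and 0.46 (310.0, 304.3 and 253.2 in knockouts, against 179.1, 203.5 and 219.6 in controls). The probe set at 0.92 was bright enough to test only through the overexpressor line, where its means were 210.2 and 198.8. The 3 Nsdhl probe sets read the same mRNA in the same mice and are not replicates.

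Lss, the lanosterol synthase, read 148.7, 143.7 and 105.9 in knockouts, against 89.6, 88.4 and 61.4 in controls. The groups did not overlap, and the log2 fold change was 0.54 (SE 0.14, 95% interval 0.24 to 0.84, limma adjusted p = 0.630). Fdps, the farnesyl diphosphate synthase, read 469.7, 512.3 and 385.9 in knockouts, against 259.7, 357.9 and 195.9 in controls. The lowest knockout lay just above the highest control, and the change was 0.70 (SE 0.29, 95% interval 0.06 to 1.34, limma adjusted p = 1). A second Fdps probe set gave 0.83, and the suffix of the brighter one (_f) marks probes that can also bind related sequences. The other 2 Fdps probe sets were too dim to test, at 31.5 to 66.4 and at the lowest value on every array.

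Idi1, the isopentenyl diphosphate isomerase, read 254.7, 275.5 and 198.1 in knockouts, against 151.6, 161.8 and 125.1 in controls. Its groups were also apart, with a log2 fold change of 0.61 (SE 0.28, 95% interval 0.01 to 1.21, limma adjusted p = 1). Hmgcs1 read 1129, 1355 and 2166 in knockouts, against 1272, 933.3 and 966.9 in controls. Knockout 3 was far above the rest and knockout 1 below knockout control 1, so the groups overlapped (0.50, SE 0.25, limma adjusted p = 1). Without knockout 3 the Hmgcs1 change was 0.23.

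Sqle, Fdft1 and Cyp51 showed small differences in the knockout. Sqle, the squalene epoxidase, read 279.0, 288.2 and 344.7 in knockouts, against 350.7, 246.8 and 245.1 in controls (0.11, 95% interval -0.19 to 0.42). Fdft1, the squalene synthase, read 262.7, 263.1 and 293.3 in knockouts, against 261.7, 292.8 and 247.7 in controls (0.03, 95% interval -0.28 to 0.33). Its sign turned with quantile normalization (-0.021), with array medians subtracted (-0.0095), with array weights (-0.017), without knockout 3 or without knockout control 3. Cyp51 read 133.2, 177.7 and 127.5 in knockouts, against 119.4, 138.4 and 92.1 in controls. Its mean over 12 arrays, 153.9, fell just under the 156.7 of the dimmest tested probe set, so it was not tested. In a fit without the filter on dim probe sets its change was 0.25 (95% interval -0.28 to 0.79, limma adjusted p = 1).

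**Figure D1:**
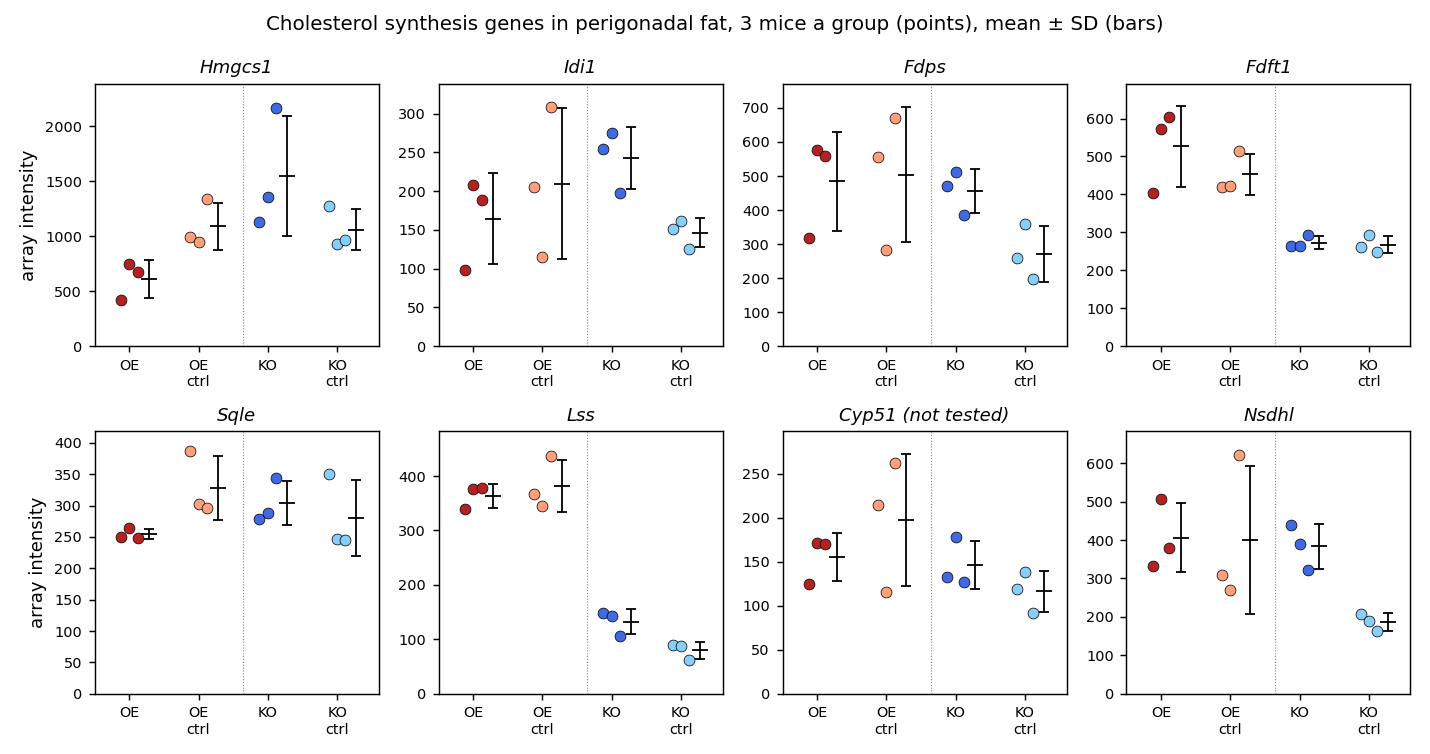
Array intensity of the brightest probe set of each gene (y axis, linear, from 0) in overexpressors (OE), their controls, knockouts (KO) and their controls. Points are mice, bars mean ± SD (n = 3). In the knockout line Idi1, Fdps, Lss and Nsdhl separate, and in the overexpressor line Hmgcs1 and Sqle do.

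The second comparison set the mice labelled as overexpressors, whose Slc2a4 values overlapped those of their controls, against FVB littermates. Of the route, 2 of 7 tested genes were higher and 5 lower, with a median log2 fold change of -0.06 against -0.07 over all tested probe sets, of which 70.3% were lower. No gene was called (0 of 7), against 6 of 7454 probe sets by limma (0.0805%). Those 6 were 2 higher and 4 lower, and with quantile normalization or array medians subtracted 11 were called, 6 higher and 5 lower. At an unadjusted p under 0.05, Hmgcs1 and Sqle were lower (2 of 7), where 3.53% of all tested probe sets were. With quantile normalization or array medians subtracted this held for 1 of 7. In the same 2 genes all 3 overexpressors lay below all 3 controls, as in 6.48% of all tested probe sets.

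Hmgcs1 had the largest log2 change of the 8 genes in the overexpressor. It read 420.5, 746.3 and 669.5 in overexpressors, against 988.1, 949.2 and 1336 in controls. The highest overexpressor lay below the lowest control, with means of 612 ± 170 and 1091 ± 213 (SD, n = 3 arrays each). The log2 fold change was -0.82 (SE 0.25, 95% interval -1.37 to -0.27, limma adjusted p = 0.673). It stayed negative whichever array was left out, from -0.97 without overexpressor 2 to -0.58 without overexpressor 1, which had a low array median. Sqle read 250.5, 263.9 and 249.0 in overexpressors, against 386.3, 301.9 and 295.7 in controls. The 3 overexpressors were tightly grouped below all controls (-0.32, SE 0.14, 95% interval -0.62 to -0.01, limma adjusted p = 0.913).

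Idi1, Fdps, Fdft1, Lss, Cyp51 and Nsdhl overlapped between overexpressors and controls. Idi1 read 97.5, 207.2 and 188.8 in overexpressors, against 204.7, 114.3 and 308.9 in controls (-0.26, 95% interval -0.86 to 0.34). Fdps read 316.6, 575.1 and 560.3 in overexpressors, against 556.1, 283.8 and 670.8 in controls (-0.02, 95% interval -0.66 to 0.62). In both genes overexpressor 1 and overexpressor control 2 were low and overexpressor control 3 was high, so the spread inside each group was wider than the difference between the groups.

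Nsdhl read 333.1, 506.3 and 380.5 in overexpressors, against 309.7, 271.3 and 621.3 in controls (0.08, 95% interval -0.44 to 0.61). Lss read 338.8, 375.3 and 377.4 in overexpressors, against 366.4, 344.4 and 436.1 in controls (-0.06, 95% interval -0.36 to 0.24). Cyp51, not tested, read 124.5, 171.7 and 169.9 in overexpressors, against 214.3, 115.6 and 262.4 in controls. Fdft1 read 404.1, 572.2 and 603.0 in overexpressors, against 420.1, 422.3 and 515.1 in controls (0.19, 95% interval -0.12 to 0.50, limma adjusted p = 0.913). Array weights alone called it (0.38, limma adjusted p = 0.0232), in a fit that gave overexpressor control 2 a weight of 4.64 and overexpressor 1 a weight of 0.332. The signs of Idi1, Fdps, Lss and Nsdhl each turned without at least 1 single array.

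**Figure D2:**
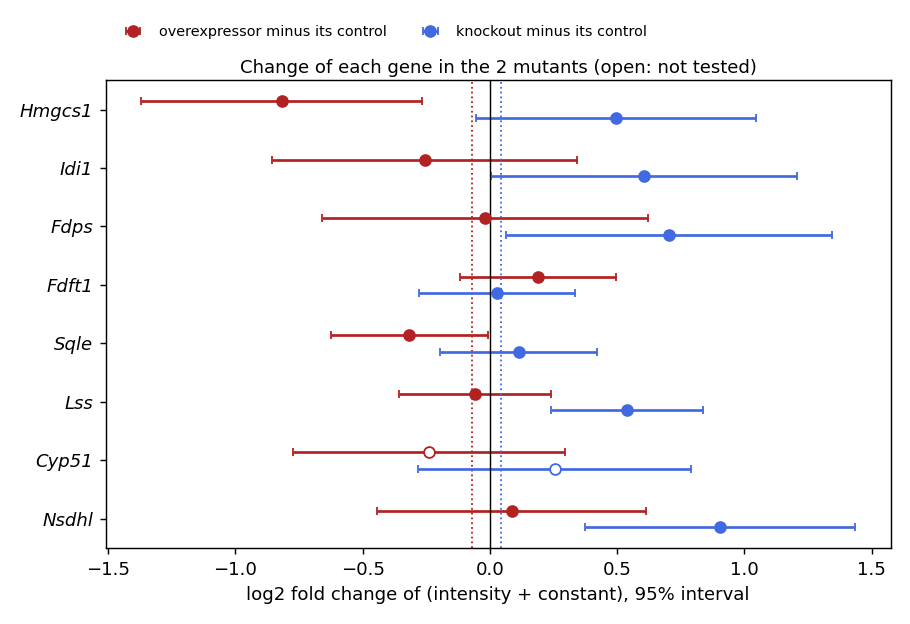
Log2 fold change of each gene (x axis) with its 95% interval, for overexpressor minus its control (red) and knockout minus its control (blue). Dotted lines are the medians over all tested probe sets, -0.07 and 0.04, and open points are Cyp51, from the fit without a filter on dim probe sets. Hmgcs1 lies at -0.82 in the overexpressor and 0.50 in the knockout.

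Whether the effects differed between the lines was tested as overexpressor effect minus knockout effect in the same model. The lines also differed in strain and in kind of control, which cannot be told apart here from gain against loss of Glut4. Of the 7 tested genes, 6 had a negative difference, with a median of -0.72 against -0.12 over all tested probe sets. With quantile normalization these medians were -0.61 and 0.01. None was called (0 of 7), against 12 of 7454 probe sets (0.161%). At an unadjusted p under 0.05 there were 4 negative differences among the 7 (Hmgcs1, Idi1, Lss and Nsdhl), where 4.31% of all tested probe sets had one. With quantile normalization or array medians subtracted there were 2. Hmgcs1 had the largest, at -1.31 (SE 0.36, 95% interval -2.09 to -0.54, limma adjusted p = 0.493). The Lss difference was -0.60 (SE 0.19, 95% interval -1.02 to -0.18, limma adjusted p = 0.695), and that of Fdft1, the 1 positive value, was 0.16. In 3 of the 7 tested genes (Hmgcs1, Sqle and Lss) every overexpressor lay below and every knockout above the mean of its controls, as in 6.29% of all tested probe sets.

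Seen mouse by mouse, all 3 knockouts stood above their line's controls over the 8 genes together. The mean log2 value, minus that of the controls, was 0.43, 0.51 and 0.42 in knockouts, against 0.11, 0.08 and -0.19 in knockout controls. In the overexpressor line it was -0.49, 0.02 and -0.07 in overexpressors, against 0.02, -0.35 and 0.33 in controls. Overexpressor controls 2 and 3 marked a wider span inside 1 group than the difference of 0.46 between knockouts and their controls. Overexpressor 1 and knockout control 3, the lowest of their lines, also had the lowest array medians, and the part of this in the differences was not tested. With array medians subtracted, the mean difference was 0.42 in the knockout, against 0.46 as deposited, and without knockout control 3 it was 0.36.

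**Figure D3:**
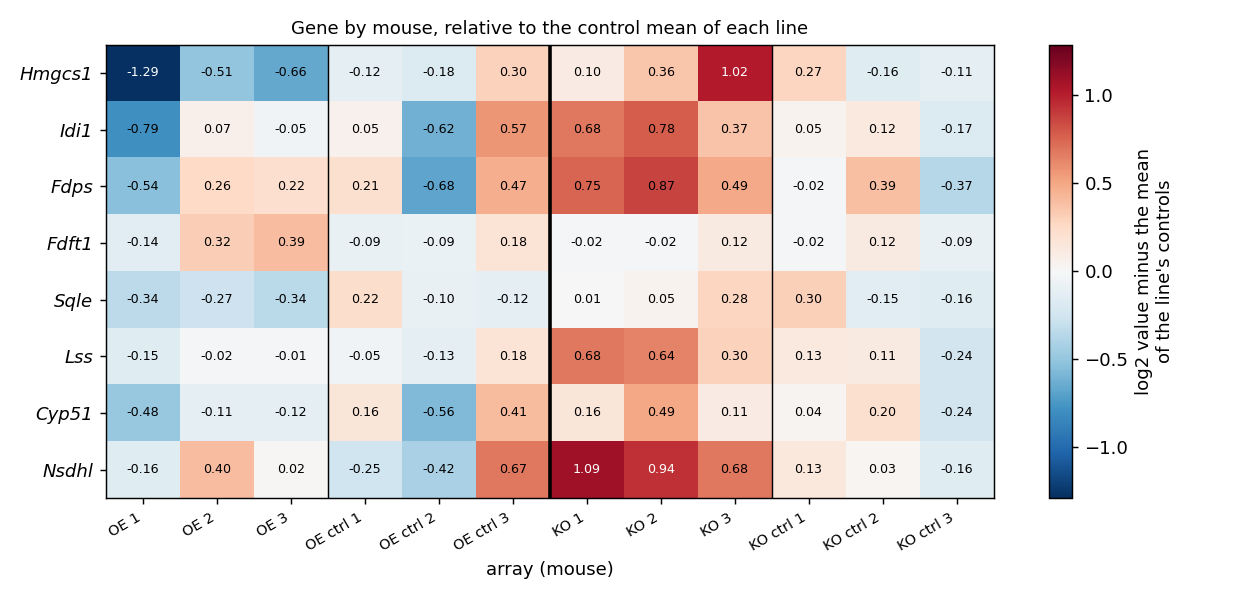
Log2 value of each gene (rows) on each array (columns) minus the mean of the controls of its line, with the number printed in each cell. Nsdhl reads 1.09, 0.94 and 0.68 in the 3 knockouts, and Hmgcs1 reads -1.29, -0.51 and -0.66 in the 3 overexpressors.

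Inside groups, most of these genes went up and down together from mouse to mouse. After each group's mean was subtracted, Pearson correlations over 12 arrays were 0.95 for Fdps with Cyp51, 0.94 for Idi1 with Fdps and 0.92 for Idi1 with Cyp51. Among Idi1, Fdps, Lss, Cyp51 and Nsdhl, grouped after their values were seen, all 10 pairs lay between 0.70 and 0.95. In the overexpressor line alone these 10 pairs lay between 0.76 and 0.98, and in the knockout line alone between 0.45 and 0.94. Over all 28 pairs of the 8 genes the median was 0.56, against 0.17 over all pairs of 5707 tested genes, and 20.8% of all gene pairs exceeded 0.56. These are descriptions: values of 1 array share its RNA, hybridisation and scaling.

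Sqle did not follow that pattern, and Hmgcs1 and Fdft1 followed it in the overexpressor line only. Fdft1 correlated with Idi1, Fdps, Lss, Cyp51 and Nsdhl between 0.63 and 0.83 in the overexpressor line. In the knockout line the same pairs lay between -0.23 and 0.45. Sqle correlated with the other 7 genes between -0.15 and 0.45, the highest being Hmgcs1. That value pooled unlike lines, since Hmgcs1 with Sqle gave -0.15 in the overexpressor line and 0.82 in the knockout line. Hmgcs1 tracked the genes other than Sqle in the overexpressor line, between 0.70 and 0.96. In the knockout line its correlations with the same 6 genes lay between -0.59 and 0.41, with knockout 3 highest for Hmgcs1 and lowest of the knockouts for Idi1, Fdps, Lss and Nsdhl. Without knockout 3 the median over all 28 pairs was 0.70. Fdps varied most inside groups, with a log2 SD of 0.43, and Lss least, at 0.17.

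**Figure D4:**
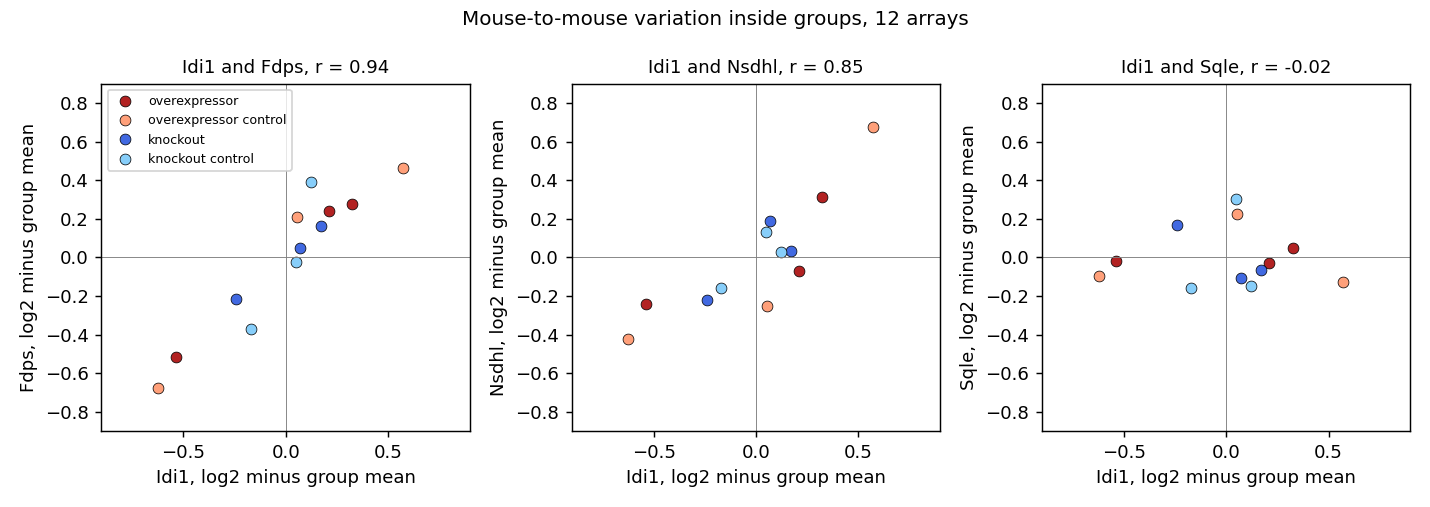
Log2 value minus group mean of Fdps, Nsdhl and Sqle (y axes) against Idi1 (x axes), 1 point per mouse and colour per group. Fdps and Nsdhl follow Idi1 (r = 0.94 and 0.85 over 12 arrays), and Sqle does not (r = -0.02).

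Genes outside the 8 with the most similar mouse-to-mouse profile were ranked by Pearson correlation with the mean profile over 12 arrays. The 5 highest were Mid1ip1, a partner of acetyl-CoA carboxylase (0.94), Ltbp3, which binds latent TGF-beta (0.94), Gbe1, the glycogen branching enzyme (0.93), Mrpl38, a mitochondrial ribosomal protein (0.92), and Pgd of the pentose phosphate pathway (0.92). Without overexpressor control 2 and overexpressor control 3, the arrays farthest from the middle, the 5 correlations lay between 0.88 and 0.95. Gbe1, for example, read 109.2, 424.6 and 360.4 in overexpressors, against 169.7, 115.4 and 357.2 in controls, low in the same mice as Idi1. The 8 genes are part of the mean profile, and those tested ranked from 1 (Idi1) to 3168 (Sqle) of 5707 tested genes. Among other enzymes of the route, Mvd, the mevalonate diphosphate decarboxylase, reached 0.84 (rank 54). Sc5d, the sterol C5 desaturase, reached 0.74 (rank 184). The other 5 tested genes listed with the route were lower, with Tm7sf2 at 0.50, Lbr at 0.42, Mvk at 0.38, Ebp at 0.15 and Ggps1, of a side branch, at -0.59. Of 4 tested genes of sterol sensing and SREBP processing, Srebf1, which encodes the SREBP1 factors of fatty acid synthesis, reached 0.69 (rank 314). The others were lower, with Nr1h3 at 0.23, Insig1 at 0.11 and Mbtps1 at 0.05.

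The rest of the route was read from a list of 14 further synthesis genes, of which 7 could be tested, Ggps1 of a side branch among them. All 7 had a positive change in the knockout, with a median of 0.13 and 0 called, and 0 had an unadjusted p under 0.05. Of all tested probe sets 63.0% had a positive change, with a median of 0.04. By smallest p, the leading genes were Ebp, the sterol isomerase, with a log2 fold change of 0.24, Mvk, the mevalonate kinase, with 0.19, and Sc5d, with 0.22. The summed intensity of the 10 genes on the array did not overlap, at 2428 to 2515 in knockouts, against 2085 to 2387 in controls. The lowest control sum was that of knockout control 3, the array with the lowest median. Taken singly, each of the 7 tested genes overlapped between knockouts and controls, where 5.62% of all tested probe sets separated upward. In the overexpressor 2 of 7 were higher and 5 lower (median -0.08, 0 called), with Mvd at -0.24, Ebp at -0.22 and Sc5d at 0.29. There 70.3% of all tested probe sets were lower, with a median of -0.07.

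Sterol sensing and transport genes showed no call either. Of 4 tested sensing genes 3 were higher in the knockout, where 63.0% of all tested probe sets were. In the overexpressor 2 were higher and 2 lower. Nr1h3, the oxysterol receptor LXR alpha, had the smallest p of these in both comparisons. It read 239.5, 362.9 and 361.4 in overexpressors, against 501.4, 544.8 and 480.5 in controls, without overlap (-0.63, SE 0.21, limma adjusted p = 0.854). In the knockout it was at 0.42 (limma adjusted p = 1). Srebf1 was at 0.23 in the overexpressor and 0.16 in the knockout, and Insig1, a sterol-regulated anchor of SREBP, at -0.06 and 0.13.

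Of 9 tested genes of uptake, transport and efflux, 7 were lower in the overexpressor (median -0.20) and 6 higher in the knockout (median 0.11), with 0 called, where 70.3% of all tested probe sets were lower in the overexpressor and 63.0% higher in the knockout. Summed over the 10 genes on the array, intensities were 10995 to 12471 in overexpressors, against 12723 to 15214 in controls, without overlap. The lowest sum was that of overexpressor 1, the array with the lowest median in its line. Apoe, the apolipoprotein of remnant uptake, was at -0.34 in the overexpressor, Lrp1, a lipoprotein receptor, at -0.36, and Npc2, which carries cholesterol out of lysosomes, at -0.20. Singly, Lrp1 and Npc2 separated downward in overexpressors and the other tested genes overlapped, where 6.48% of all tested probe sets separated downward. Apoe, the brightest, read 4190 to 4782 in overexpressors, against 4768 to 6392 in controls. In the knockout Npc2 was at 0.17, Scarb1, the HDL receptor, at 0.17 and Lipa, the lysosomal lipase, at 0.11.

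Marker lists of fat cells and of neighbouring cell types were read beside these genes. The summed intensity of 8 adipocyte markers ran from 26622 to 29822 in knockouts, against 26161 to 27743 in their controls, and from 23682 to 30517 in overexpressors, against 25629 to 29924 in their controls. Cidec, a lipid droplet protein and 1 of these markers, read 1139, 1728 and 1792 in overexpressors, against 2243, 2856 and 2834 in controls, without overlap (log2 fold change -0.77, limma adjusted p = 0.307). Perigonadal fat lies beside the ovary, which makes sterols, and 9 ovary and steroidogenic genes summed to 2410 to 2643 in knockouts, against 2537 to 2777 in controls. In the overexpressor line they summed to 1899 to 1970 in overexpressors, against 1897 to 2071 in controls. By mean over 12 arrays Inhba was the brightest of these 9, at 121.8 to 1143, and Hsd3b1 the dimmest, at 21.9 to 57.0. Hepatocyte markers (9 genes) summed to 3062 to 3124 in knockouts, against 2877 to 3439 in controls, and to 2478 to 2540 in overexpressors, against 2605 to 2751 in controls, without overlap. Of 8 oviduct and uterus epithelium markers, Krt19 was the brightest, at 217.3 to 1045, and Epcam the dimmest, at the lowest value on 10 of 12 arrays. These 8 summed to 1398 to 2489 in knockouts, against 1524 to 2106 in controls. In the overexpressor line they summed to 1751 to 2128 in overexpressors, against 2093 to 2691 in controls. Single mice set the top of both knockout line ranges. Ovgp1, an oviduct glycoprotein, read 834.1 in knockout 1 and at most 185.4 on the other arrays. Ltf, lactoferrin, read 672.1 in knockout control 3 and 362.4 in knockout 1, against 68.25 to 95.27 in the line's other mice. Without knockout 1 the median knockout change of the tested synthesis genes was 0.57, and without knockout control 3 it was 0.44.

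Stromal markers were read against the 70.3% of all tested probe sets that were lower in overexpressors, and none was called. The 9 matrix and fibroblast genes were lower in 9 of 9, with a median of -0.40 against -0.07. Their sums overlapped, at 18793 to 23497 in overexpressors, against 22029 to 32778 in controls. At an unadjusted limma p under 0.05, 6 of these 9 were lower and 1 of 8 endothelial genes was, where 3.53% of all tested probe sets were. The 8 endothelial genes were lower in 8 of 8, with a median of -0.27 and overlapping sums of 3500 to 4773 in overexpressors, against 4341 to 5179 in controls. Macrophage markers (9 genes) summed to 4491 to 4904 in overexpressors, against 3941 to 8118 in controls, and B cell markers (5 genes) to 1518 to 1905 in overexpressors, against 1675 to 2180 in controls. In the knockout the same 4 lists overlapped their controls, at 17718 to 24368 against 20498 to 26392 for matrix, 3574 to 5906 against 4148 to 5129 for endothelium, 3617 to 5116 against 3470 to 4988 for macrophages and 1353 to 1563 against 1340 to 1661 for B cells. The part of these cell types in the differences of Hmgcs1 and Sqle was not tested.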

How the data were processed

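Perigonadal fat RNA, prepared with an RNeasy kit and biotin-labelled per the labels, was read on 12 arrays. The authors deposited an intensity for each probe set on each array; how they were summarised, scaled and background-corrected is not given in the sources used here. Groups came from the sample titles, because the genotype field gives controls the value of their mutants.

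Before the log2 step 36.92, the table's 10th percentile, was added to each value, so changes of dim probe sets are understated. The 40% of probe sets with the lowest mean over 12 arrays (4968) were left out and 7454 tested. All 12 arrays entered 1 model of 4 group means (limma 3.58.1, R 4.3.3, eBayes, trended prior, residual degrees of freedom 8, prior 4.27), with p adjusted by Benjamini-Hochberg over all tested probe sets. The number of arrays limits the precision, and the smallest two-sided p of an exact permutation test at 3 mice a group is 0.1, so none was run. The fit was tested on simulated data. The brightest probe set stood for a gene. Of all probe sets, 10833 had 1 symbol, 396 several and 1193 none, with symbols updated through gene IDs of GRCm38.p6. Genes named outside the 8 were those of the 3 route lists with the smallest p (up to 3 per list and comparison), the 5 most similar profiles and Slc2a4. Adipoq, Inhba, Hsd3b1, Krt19, Epcam, Cidec, Ovgp1 and Ltf among the cell markers, and the route genes ranked by profile, were named after their values were seen. The 8 genes, the lists and the tests were chosen with earlier results of these data known. Figures used matplotlib 3.10.9 in Python 3.11.15. Alternatives were other constants, filters, normalizations, weights, probe set rules, blocks and left-out arrays.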

Additional observations from a re-analysis of the deposited data

Results flagged for a closer look

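In 4 of the 8 genes every overexpressor lay below the mean of its controls and every knockout above the mean of its controls, and these are listed for that reason. Of the 7 tested genes 3 did so, against 6.29% of all tested probe sets. The overexpressor effect minus the knockout effect was -1.31 for Hmgcs1 (limma adjusted p = 0.493), -0.43 for Sqle (0.893), -0.60 for Lss (0.695) and -0.49 for Cyp51. The Cyp51 value comes from the fit without a filter on dim probe sets (limma adjusted p = 0.934). None of the 4 differences passed the test, and the lines also differed in strain and in kind of control. For Lss the overexpressors were at -0.15, -0.02 and -0.01 relative to their control mean, so its difference rests on the knockouts, at 0.68, 0.64 and 0.30. Groups of 3 are too small for the test of a single distant mouse, which needs 4.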

How the results depend on the processing

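The 0 calls among the 8 genes held under all 24 alternatives in the knockout and in the difference between effects, wherever these were fitted. In the overexpressor 1 gene, Fdft1, was called with array weights (0.38, limma adjusted p = 0.0232), and 0 under the others. Over all probe sets the overexpressor had 11 calls with quantile normalization, 11 with array medians subtracted, 1 on the line's own 6 arrays, 419 with array weights and 3 (without overexpressor control 2) to 21 (without overexpressor control 3) with single arrays left out. The knockout had 14 calls with array weights and 6 to 11 with single arrays left out. The difference had 1 call without a filter, 43 with array weights, 1 without the 2 dimmest arrays (an alternative chosen after seeing the data) and 1 (without overexpressor 3 or without knockout 3) to 13 with single arrays left out. Fitting the replicate number as a block left 0 calls in the knockout and 1 in the difference. Same-numbered mice of a line did not deviate together (r from -0.35 to 0.02). With 3 mice a group this cannot settle whether the numbers pair the mice. The block changed no call of the 8 genes.

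The median change of the genes was 0.72 in the knockout with a constant of 1 before the log, which enlarges changes of dim probe sets by construction. With array weights it was 0.38 in the overexpressor and -0.27 for the difference. With single arrays left out, the median ran from 0.44 to 0.66 in the knockout, from -0.36 (without overexpressor control 2) to 0.03 (without overexpressor control 3) in the overexpressor, and from -1.03 to -0.49 for the difference. The median correlation ran from 0.49 to 0.70, and the mean over genes from 0.36 to 0.51 in the knockout and from -0.35 to -0.014 in the overexpressor.

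Signs that turned belonged to uncalled values. In the knockout these were Fdft1 (-0.021 with quantile normalization, -0.0095 with array medians subtracted, -0.017 with array weights, -0.019 without the 2 dimmest arrays, and -0.019 to 0.087 with single arrays left out) and Sqle (-0.042 with array weights). In the overexpressor Fdps was at 0.054 with quantile normalization, 0.038 with array medians subtracted, 0.67 with array weights, 0.0069 as the mean over probe sets, 0.24 without the 2 dimmest arrays and -0.36 to 0.24 with single arrays left out. Idi1 was at 0.41 with array weights, 0.011 without the 2 dimmest arrays and -0.57 to 0.028 with single arrays left out. Lss was at 0.0070 with quantile normalization, 0.069 with array weights and -0.13 to 0.030 with single arrays left out. Nsdhl ran from -0.13 to 0.42. The cause of these shifts was not tested.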
